A study of Mus musculus with 4 samples.

Results

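Integrin subunits are followed here through doxycycline treatment of NOTCH1-driven mouse mammary tumor cell lines, in 10 genes: Itga2, Itga3, Itga5, Itga6, Itgav, Itgb1, Itgb3, Itgb4, Itgb5 and Itgb6. They were taken by name from 18193 genes, each with every probe set that the platform annotation assigns to it alone, 30 in all. For a gene with several probe sets, the one with the highest mean log2 signal is called its lead. Lines 8534 and 8542 were derived from primary mammary tumors of female MMTV-tTA/TOP-ICN1 mice (strain FVB/N;B6), in which a transactivator under the MMTV promoter drives human ICN1, the active intracellular part of NOTCH1, until doxycycline shuts it off. Cells of both lines were measured without treatment (ICN1 on) and after 24 hours in doxycycline at 2 µg/ml (ICN1 off), on 1 Affymetrix array per line and condition. The line is thus the replicate (n = 2 lines). All groups carry the transgene, so that an effect of doxycycline itself and of ICN1 loss cannot be told apart.

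Integrins are cell surface receptors built from an α and a β chain. Their outer parts bind laminins, collagens, fibronectin or vitronectin, and the short tails of most β chains bind talin and kindlin, which connect them to actin. The long tail of β4 instead binds plectin and anchors keratin filaments in hemidesmosomes. In the mouse mammary gland high surface levels of CD29 (Itgb1) and CD49f (Itga6) mark basal and stem cells, while luminal cells have lower CD29. Within the luminal cells, CD61 (Itgb3) marks progenitors.

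Most of the 10 integrin subunits had a higher signal after doxycycline, and the genes that rose encode α3, β1, β4 and β5. By lead probe set 9 of the 10 genes were higher in both lines and none was lower in both, where 34.2% of all tested genes and 32.7% of all genes were higher in both. Past the rule of the methods, a change over 2-fold in both lines, were 1 integrin gene upward (Itga3, beside 3.09% of all genes) and none downward (4.42% of all genes). In limma, with the cell line as a pairing term, 4 genes rose (Itga3, Itgb1, Itgb4 and Itgb5), none fell and 6 did not pass, beside 4.76% of tested genes that rose and 6.95% that fell. At an unadjusted limma p under 0.05 the count was 8, all higher, beside 12.4% of tested genes that were higher at that threshold and 14.1% that were lower. The median integrin gene was 1.73-fold higher in line 8534 and 1.77-fold in line 8542 (0.79 and 0.82 on the log2 scale), while the median of 15070 tested genes changed by 0.011 and 0.00014. None of the 10 was called once the pairing by line, or the intensity trend of the variance model, was dropped. For 6 genes both treated arrays lay above both untreated arrays, as they did for 21.1% of all genes.

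**Figure D1:**
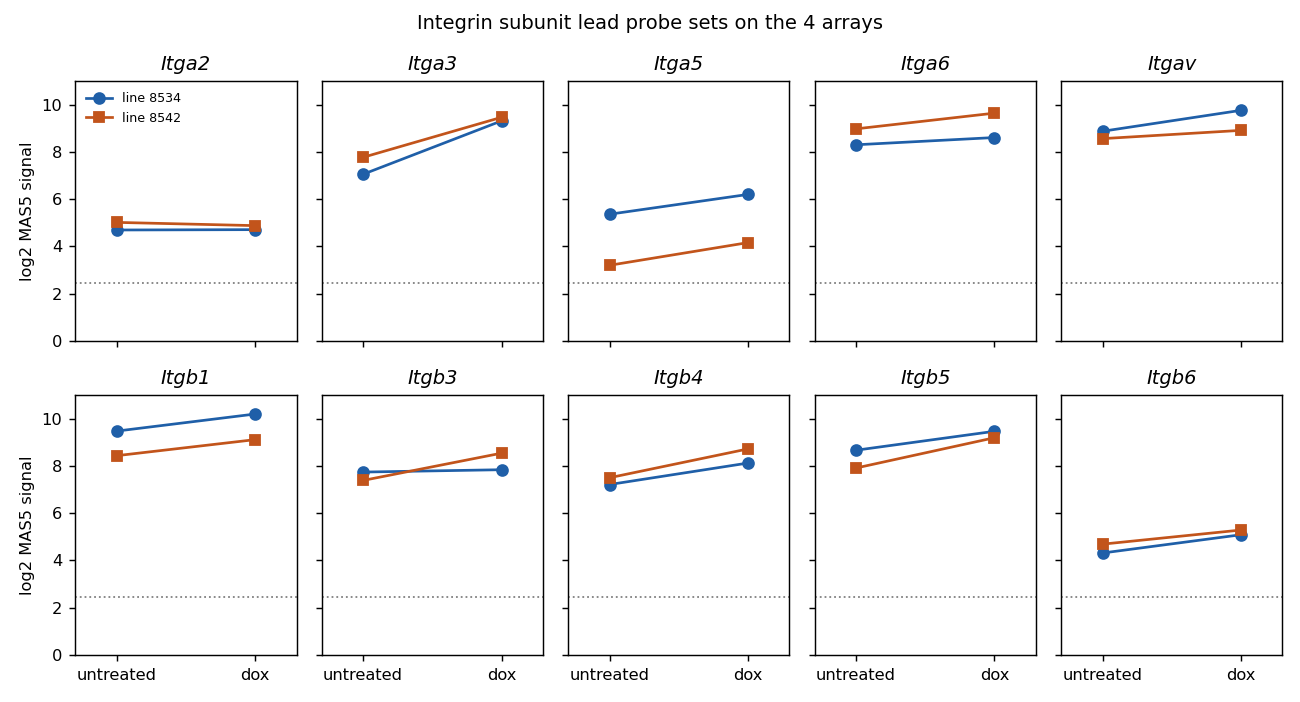
Log2 MAS5 signal of the lead probe set of each integrin subunit, without and with doxycycline (dox), 1 point per array and a line joining the arrays of each cell line. The dotted level is the 20th percentile (2.47), and Itga3 climbs from 7.05 to 9.31 in line 8534 and from 7.77 to 9.46 in line 8542.

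Treatment and cell type were read from other genes. Of 8 NOTCH targets 7 fell in limma and by over 2-fold in each line. The luminal keratin genes Krt8 and Krt18 gave 3467 to 8044 units, and of 9 luminal markers tested 5 rose and 1 fell (Krt19). The summed signal of 10 basal markers was 6197 units before and 9925 after treatment in line 8534, but 291 and 390 in line 8542, with 1 of 9 called (Cnn1, higher). Acta2 alone went from 3012 to 6588 units in line 8534. There the basal keratin genes Krt14 (1379 and 869 units) and Krt5 (52.9 and 28.9 units) had lower values after treatment, and Krt17 (1562 and 2021 units) a higher one. In line 8542 Krt14 was lower again (15.9 and 10.0 units), Krt5 was higher (15.3 and 33.6 units) and Krt17 hardly moved (35.9 and 36.2 units). Neither Acta2 nor any of these keratin genes was called. Of 6 luminal progenitor markers Elf5 fell and Cd14 rose. Sums over 11 leukocyte genes (330 to 641 units), 8 fibroblast genes (97.5 to 370 units), 8 endothelial genes (160 to 276 units) and 5 adipocyte genes (49.8 to 75.3 units) moved in opposite directions in the lines, and limma called Tek alone among their 21 tested genes, as lower. The part of these cells in the integrin values was not tested. In bulk RNA, fewer cells of a type and less RNA per cell cannot be told apart.

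Among the laminin receptors, Itga3 rose most. It encodes α3, which joins β1. Its lead probe set 1455158_at gave 133 units without and 636 with doxycycline in line 8534, and 218 without and 706 with it in line 8542. Treated arrays were far above untreated ones, and the lines were closer after treatment (1.11-fold apart) than before (1.64-fold). The rise was 4.79-fold and 3.24-fold (mean log2 change 1.98 ± 0.40, SD over 2 lines; limma adjusted p = 0.00111; 95% confidence interval 1.57 to 2.38). Without the pairing the limma adjusted p was 0.0871. Probe set 1421997_s_at rose more, from 11.2 to 165 units in the first line and from 12.9 to 142 units in the second, 14.7-fold and 11-fold (limma adjusted p = 0.000613). Before treatment it exceeded 29.9% and 32.7% of probe sets on its array, and after treatment 82.0% and 79.9%. Probe set 1460305_at was 2.40-fold and 1.5-fold higher and did not pass (limma adjusted p = 0.0859). Every Itga3 probe set was thus higher in both lines, by unlike amounts.

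Itga6 encodes α6, which pairs with β1 or β4 on laminins. Its lead 1422445_at gave 315 units before and 390 after treatment in line 8534, against 503 and 798 in line 8542. The groups overlapped, because line 8542 was higher in either condition, by 1.6-fold and then 2.05-fold. Its signal was 1.24-fold and 1.59-fold higher with doxycycline (mean log2 change 0.49 ± 0.25, SD over 2 lines) and did not pass (limma adjusted p = 0.0873). The other probe set, 1422444_at, was 1.31-fold and 1.46-fold higher (limma adjusted p = 0.124).

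Itgb4, the hemidesmosomal partner of α6, rose. Its 1 probe set, 1427387_a_at, gave 149 units before and 279 after treatment in line 8534, against 182 and 423 in line 8542, and the groups did not overlap. This was 1.88-fold and 2.33-fold (mean log2 change 1.06 ± 0.22, SD over 2 lines; limma adjusted p = 0.00722), under 2-fold in the first line. Without the pairing the limma adjusted p was 0.217.

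Itga2 encodes α2 of a collagen receptor. Its 1 probe set, 1450501_at, gave 25.8 units before and 26.1 after treatment in line 8534, and 32.3 and 29.4 in line 8542. These 4 values lie within 1.25-fold of each other and the groups overlapped. The mean log2 change of -0.061 ± 0.11 (SD over 2 lines) did not pass (limma adjusted p = 0.944), and its 95% confidence interval of -0.84 to 0.72 holds anything from 0.559 to 1.64 times the untreated signal.

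Itgb1 encodes β1, the partner of α2, α3, α5, α6 and αv, and rose by a like amount in each line. Its lead 1426918_at gave 713 units before and 1177 after treatment in line 8534, and 347 and 555 in line 8542. Line 8542 stayed below untreated 8534 cells even when treated, so that the groups overlapped although each line rose. The folds were 1.65 and 1.6 (mean log2 change 0.70 ± 0.031, SD over 2 lines; limma adjusted p = 0.0129). Probe set 1452545_a_at rose 2.07-fold and 1.59-fold (limma adjusted p = 0.0114), and 1427771_x_at was 2.20-fold and 1.54-fold higher (limma adjusted p = 0.0943). The remaining Itgb1 probe sets had signals of 0.989 to 19.0 units and no common direction: 1438119_at was 3.12-fold and 1.12-fold lower (limma adjusted p = 0.57), and 1426920_x_at changed by 0.093 and -0.57 on the log2 scale (limma adjusted p = 0.907). Averaged over all its probe sets, dim ones included, Itgb1 changed by 0.23 and lost its call (limma adjusted p = 0.715), and so it did without the pairing (limma adjusted p = 0.638).

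**Figure D2:**
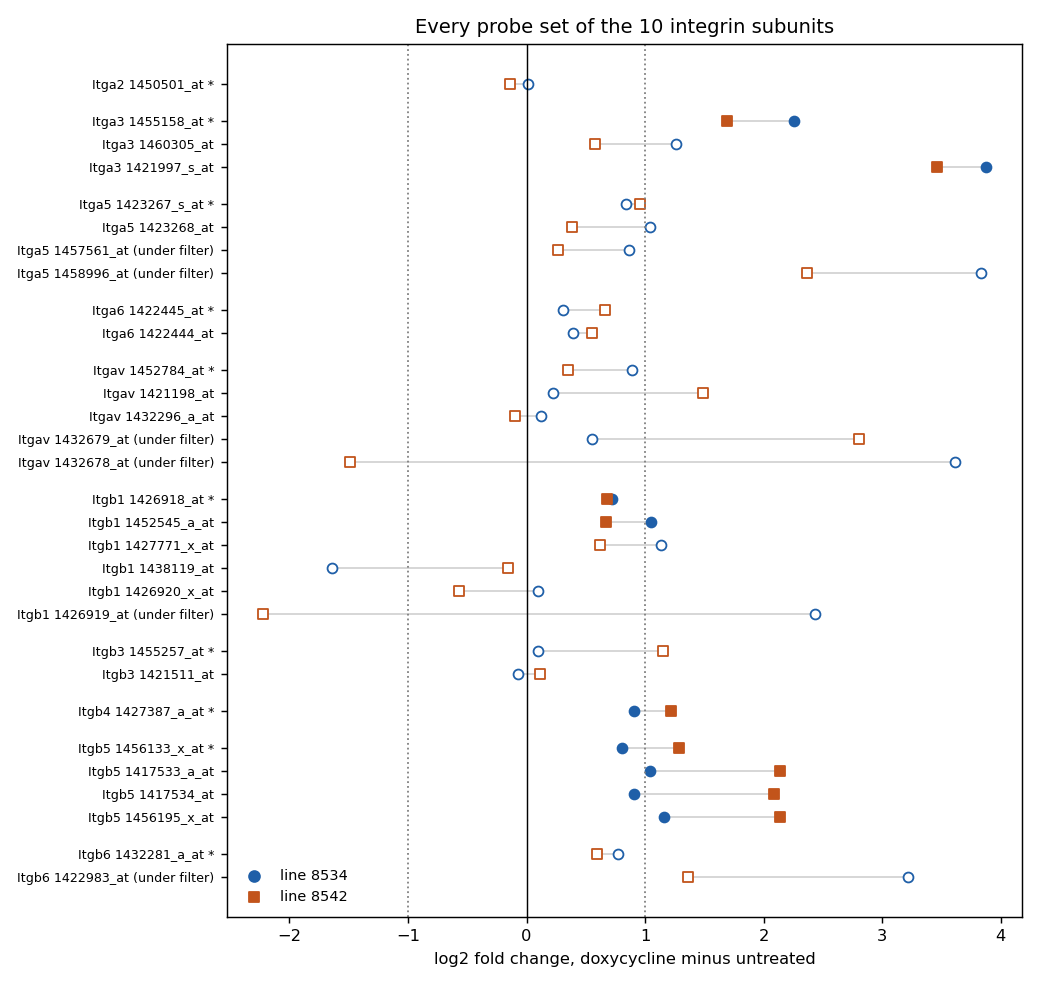
Log2 fold change with doxycycline of all 30 integrin probe sets in line 8534 (circles) and line 8542 (squares), leads starred, filled where limma called the probe set, with dotted guides at 2-fold. Probe sets under the filter on signal were not tested, and all 4 of Itgb5 lie above 0 in both lines.

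Itgb5 encodes β5, a vitronectin-binding partner of αv, and rose. Its lead 1456133_x_at gave 407 units before and 709 after treatment in line 8534, and 241 and 587 in line 8542, without overlap of the groups. The rise was 1.74-fold and 2.43-fold (mean log2 change 1.04 ± 0.34, SD over 2 lines; limma adjusted p = 0.00762). The suffix _x_at marks probes that may bind other transcripts, and this lead had the smallest mean change of the 4 Itgb5 probe sets. Next in signal, 1417533_a_at went from 276 to 569 units in the first line and from 123 to 541 in the second (2.06-fold and 4.39-fold; limma adjusted p = 0.0086), past 2-fold in both. So did 1456195_x_at (2.23-fold and 4.39-fold; limma adjusted p = 0.00855), while 1417534_at rose 1.87-fold and 4.26-fold (limma adjusted p = 0.0176). On each of them line 8542 started lower and changed more, a difference between the lines that was not tested. Without the pairing the lead did not pass (limma adjusted p = 0.26).

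Itgav encodes αv, the shared partner of β1, β3, β5 and β6. Its lead 1452784_at gave 469 units before and 867 after treatment in line 8534, and 378 and 481 in line 8542. The groups did not overlap, but treated 8542 cells were only just above untreated 8534 cells. The signal was 1.85-fold and 1.27-fold higher (mean log2 change 0.62 ± 0.38, SD over 2 lines) and did not pass (limma adjusted p = 0.0575), whereas it did with a filter at the 50th percentile (limma adjusted p = 0.0409) or with low signals raised to a floor (limma adjusted p = 0.0429). Its other 4 probe sets gave 0.629 to 45.7 units, and 2 of them were higher in both lines.

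Itgb3, the gene of CD61, changed by unlike amounts in the lines. Its lead 1455257_at gave 214 units before and 230 after treatment in line 8534 (1.07-fold), and 168 and 373 in line 8542 (2.23-fold). The groups did not overlap. The mean log2 change of 0.63 ± 0.75 (SD over 2 lines) had the widest spread of the 10 leads and did not pass (limma adjusted p = 0.184). The other probe set, 1421511_at, gave 7.63 to 9.04 units on the arrays.

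Itga5 encodes α5 of a fibronectin receptor, and the level of its lead differed more between the lines than with treatment. Its lead 1423267_s_at gave 41.1 units before and 73.4 after treatment in line 8534, and 9.17 and 17.8 in line 8542. Line 8534 was 4.48-fold higher untreated and 4.11-fold higher treated, so that the groups overlapped. Doxycycline values were 1.79-fold and 1.95-fold higher (mean log2 change 0.90 ± 0.086, SD over 2 lines) and did not pass (limma adjusted p = 0.175). Probe set 1423268_at was 3.35-fold lower in untreated 8542 cells too, and 2.06-fold and 1.31-fold higher with doxycycline (limma adjusted p = 0.442). Both remaining probe sets lay under the filter (0.665 to 12.4 units) and were higher with doxycycline in each line. Their untreated signals were higher in line 8542 instead, 7.99-fold for 1457561_at and 2.51-fold for 1458996_at.

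Itgb6 encodes β6, an epithelial partner of αv that binds latent TGF-β. Its lead 1432281_a_at was dim, with 19.9 units before and 34 after treatment in line 8534, and 25.8 and 39.1 in line 8542. The groups did not overlap. The mean log2 change of 0.69 ± 0.12 (SD over 2 lines; 1.71-fold and 1.51-fold) did not pass (limma adjusted p = 0.277; 95% confidence interval -0.086 to 1.46). Probe set 1422983_at, under the filter, went from 1.14 to 10.6 units in the first line and from 9.24 to 23.7 in the second.

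**Figure D3:**
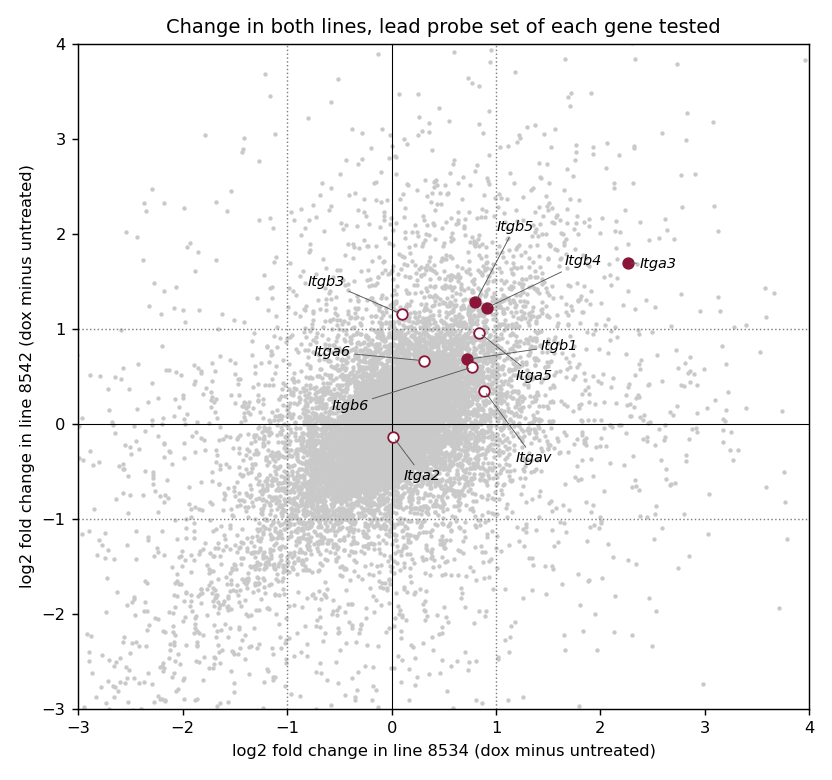
Log2 fold change in line 8534 (x) and line 8542 (y) of the lead probe sets of 15070 tested genes, with the 10 integrin subunits named and filled where limma called them, and guides at 2-fold. The axes end at -3 and 4, which leaves out 231 genes, and 9 integrin subunits lie above 0 on both axes.

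Over the 30 probe sets, 23 were higher in both lines, 1 was lower in both and 6 went opposite ways, where 31.7% of all probe sets were higher in both. Past 2-fold in both lines were 6 upward and none downward (3.44% and 4.4% of all probe sets). Among the 6, Itga5 1458996_at and Itgb6 1422983_at started under the 20th percentile (5.52 units) in at least 1 line. Limma called 9 of 24 tested probe sets higher and none lower, beside 3.69% and 5.54% of all tested probe sets. These 9 belong to Itga3 (2), Itgb1 (2), Itgb4 (1) and Itgb5 (4).

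As receptors the genes form 9 known α and β pairs. Both genes were higher in both lines in 8 pairs, all but α2β1, and both rose in 1, α3β1. In 6 pairs, α2β1, α5β1, α6β1, αvβ1, αvβ5 and α6β4, the β gene rose and the α gene did not pass. The pairs share genes, and the single call of Itgb1 enters every pair with β1, so that these counts are not independent. No protein was measured.

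Untreated signals of the leads differed between the lines in either direction. Line 8534 was higher for Itga5 (4.48-fold), Itgb1 (2.06-fold), Itgb5 (1.69-fold), Itgb3 (1.28-fold) and Itgav (1.24-fold). Line 8542 was higher for Itga3 (1.64-fold), Itga6 (1.6-fold), Itgb6 (1.3-fold), Itga2 (1.25-fold) and Itgb4 (1.22-fold). After treatment the gap was 4.11-fold for Itga5 and 2.12-fold for Itgb1, but 1.11-fold for Itga3 and 1.21-fold for Itgb5. With 1 array each, none of these gaps was tested.

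Promoters of 7 of the genes (9 windows of 300 bases, 250 before and 50 after a start, RefSeq, GRCm38.p6) were searched for short motifs on both strands. Itga6, Itgb3 and Itgb4 were not analysed here. TGGGAA, the core letters bound by the NOTCH cofactor RBPJ, was in 0 of the 9 windows (25.6% of all 32851 windows), as were the MYC E-box CACGTG (7.15%) and the AP-1 site TGACTCA (5.2%). GGAATG, the core of a TEAD site, lay 7 bases before the start of Itgb1 (14.7% of all windows), and a CArG box 50 bases before the downstream start of Itgb6 (1.63%). The GC box GGGCGG, added after values were seen, was in 7 of the 9 (35.7% of all windows), with 3 matches in the window of the upstream Itga3 start and 3 in that of Itgb5. Itga5 had 2 matches, and Itga2, Itgav, Itgb1 and the downstream Itga3 start had 1 each. The match of Itga2 begins 2 bases after the start and that of Itgb1 151 before it, so that neither is among the bases printed below. A match is of letters only. Shown 5′ to 3′ are the 100 bases before the start for Itga3, Itgb1 and Itgb5, which rose, and for Itga2, which did not pass, with GGGCGG and GGAATG on either strand in capitals, at chr11:95076715-95076814 (minus strand), chr8:128685554-128685653 (plus), chr16:33829565-33829664 (plus) and chr13:114932101-114932200 (minus).
Itga3: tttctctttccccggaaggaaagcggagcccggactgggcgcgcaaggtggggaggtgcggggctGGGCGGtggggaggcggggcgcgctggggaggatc
Itgb1: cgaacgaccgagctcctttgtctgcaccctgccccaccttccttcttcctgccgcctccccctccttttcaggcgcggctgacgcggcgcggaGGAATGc
Itgb5: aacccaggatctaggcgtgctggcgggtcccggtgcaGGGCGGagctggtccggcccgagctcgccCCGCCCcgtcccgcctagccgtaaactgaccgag
Itga2: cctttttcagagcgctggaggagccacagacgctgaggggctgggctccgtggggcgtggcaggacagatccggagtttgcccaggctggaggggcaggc
GC content over the 300 bases was 66.7% for this Itga3 window, 67.3% for Itgb1, 65.7% for Itgb5 and 59.3% for Itga2, beside a median of 52.7% over all windows.

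None of the other integrin subunits was called. Of 14 matched, 4 were higher in both lines by lead probe set, where 32.7% of all genes were. Of the same 14, 11 were tested, and 1 had an unadjusted limma p under 0.05. This was Itgb8, another αv partner, named after its values were seen, with 617 units before and 723 after treatment in line 8534 and 679 and 1480 in line 8542 (limma adjusted p = 0.0932). The median of the 11 changed by 0.11 and 0.27 on the log2 scale. Whether they differ from the 10 was not tested.

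Genes that connect β tails to actin rose in part. Of 26 activators and adaptors tested 9 rose and none fell, 6 of the list were over 2-fold higher in both lines, and the median changed by 0.40 and 0.56 on the log2 scale. Tln1 encodes talin, which activates integrins, and went from 394 to 936 units in the first line and from 266 to 723 in the second (2.38-fold and 2.72-fold; limma adjusted p = 0.00152). Vcl, the gene of talin-binding vinculin, rose 2.21-fold and 2.74-fold (limma adjusted p = 0.00141). Lims2, a PINCH adaptor of integrin-linked kinase, went from 13.1 to 60.6 and from 3.10 to 53.8 units (limma adjusted p = 0.0143), the 3.10 being under the 20th percentile. Apbb1ip, the gene of RIAM, which recruits talin, gave 7.37 to 20.4 units and did not pass (2.59-fold and 2.68-fold; limma adjusted p = 0.221). Named after their values were seen, Pxn, Ilk, Zyx, Flna, Tns3 and Actn4 rose too, although in the fit to averaged probe sets Tns3 and Actn4 lost their calls (limma adjusted p = 0.174 and 0.0674), while the kindlin gene Fermt2 (1.34-fold and 1.45-fold; limma adjusted p = 0.0633) did not pass.

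Of 18 focal adhesion signalling genes tested 2 rose and none fell, with medians of 0.04 and 0.08 on the log2 scale. Asap1, an ARF GTPase-activating protein, rose 2.48-fold and 3.36-fold (limma adjusted p = 0.0046). Bcar1, the gene of the adaptor p130Cas, was named after its values were seen (2.36-fold and 1.41-fold; limma adjusted p = 0.0407).

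Of 13 laminin and hemidesmosome genes tested 1 rose and 1 fell, and the medians of 0.13 and -0.13 had opposite signs. Lama4, a laminin α chain of vessel and muscle basement membranes, fell 2.92-fold and 2.97-fold (limma adjusted p = 0.00235). Cd151, a tetraspanin that binds laminin receptors, rose 1.47-fold and 1.68-fold (limma adjusted p = 0.0141). Plec, the gene of plectin, gave 437 to 482 units (limma adjusted p = 0.882), and it and Cd151 were named after their values were seen. Col17a1, the hemidesmosomal collagen, was under the 20th percentile on every array (0.332 to 1.62 units).

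Ligands of RGD-binding and collagen receptors went both ways. Of 23 tested 10 rose and 5 fell, 6 were over 2-fold higher and 2 over 2-fold lower in both lines, and the medians were 0.67 and 0.30 on the log2 scale. Thbs1, the gene of thrombospondin, went from 652 to 3214 units in the first line and from 138 to 2231 in the second (4.93-fold and 16.1-fold; limma adjusted p = 0.00213). Postn, the gene of periostin, rose 7.04-fold and 7.92-fold (limma adjusted p = 8.93e-05), and Col6a1, a collagen VI chain, fell 6.92-fold and 8.62-fold (limma adjusted p = 0.000292). Vtn, the gene of vitronectin, which binds αvβ5 and αvβ3, went from 3.90 to 29.3 and from 4.11 to 25.4 units (limma adjusted p = 0.0464). With untreated signals raised to 5.52 units this was 5.30-fold and 4.60-fold, and the other Vtn probe set was not higher in both lines. Fn1, the fibronectin gene, rose 1.5-fold and 2.65-fold (limma adjusted p = 0.0163). Tgfb1 fell 1.90-fold and 1.87-fold (limma adjusted p = 0.005), a call lost over averaged probe sets (limma adjusted p = 0.122), and both were named after their values were seen. Without the pairing by line, or without the intensity trend, no companion gene was called.

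**Figure D4:**
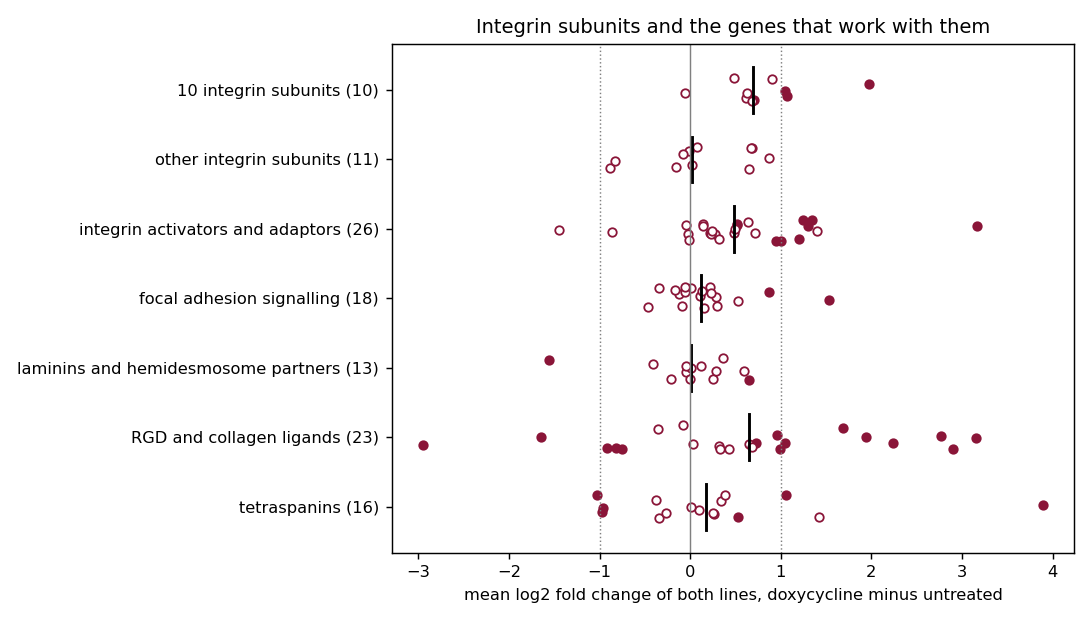
Mean log2 fold change of both lines with doxycycline for the 10 integrin subunits and the tested genes of 6 companion lists, 1 point per gene, filled where limma called it, with a bar at each median. Ligands spread to either side of 0, and no other integrin subunit is filled.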

How the data were processed

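RNA of 4 samples was hybridized to Affymetrix mouse arrays. The authors ran MAS5, which brings all arrays to 1 trimmed mean, and deposited log2 values. Base 2 was inferred from trimmed means of 97.7 to 101.8 units. For MAS5, neither version nor scaling target is given in the sources used here. Of 45101 probe sets 64 controls were removed, and 34945 of the other 45037 carry 1 gene symbol, 932 several and 9160 none.

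Changes are treated minus untreated log2 values of a line. In limma 3.58.1 (R 4.3.3), line and treatment were fitted to 33778 probe sets (25th percentile filter, mean log2 2.94) with eBayes and a trend, and calls have a Benjamini-Hochberg adjusted p under 0.05 over all of them. There was 1 residual degree of freedom, from the spread between the 2 lines, plus 6.18 from moderation. The p-values thus rest mostly on the variance trend over all tested probe sets and only in part on the spread between the lines. The number of arrays limits precision. Pairing follows from the shared cell line (r = 0.36 between deviations of same-line arrays). No exact test over 2 lines can give less than p = 0.5. The fit was tested on simulated data whose noise was drawn from the same variance trend, so that this cannot show whether the trend holds for these arrays.

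The members and lists were chosen with earlier results of these data known. Of 195 listed companion and marker genes 180 matched, and the rest were not analysed here. Named are all 10 members and, per list, up to 4 genes with the largest changes past 2-fold in both lines, and markers by count and level. The planned protein features were not analysed here. Alternatives were other filters, a floor or pseudocount (5.52 units, the 20th percentile), quantile normalization, median centring, averaged probe sets, other variance models, no pairing, each line left out and, chosen after seeing the data, leads without _x_at and _s_at probe sets.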

Additional observations from a re-analysis of the deposited data

Results flagged for a closer look

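Opposite directions in the lines, however small, marked 6 of the 30 integrin probe sets and the medians of 4 lists, and none of these differences was tested, since each line has 1 array per condition. The change in line 8534 minus that in line 8542 was 5.10 on the log2 scale for Itgav 1432678_at, which went from 0.629 to 7.70 units in the first line and from 7.13 to 2.55 in the second. It was 4.66 for Itgb1 1426919_at, which went from 1.61 to 8.70 and from 4.62 to 0.989 units. Both lay under the filter on signal. For the others it was smaller, 0.66 for Itgb1 1426920_x_at, 0.22 for Itgav 1432296_a_at, 0.15 for Itga2 1450501_at and -0.18 for Itgb3 1421511_at. For list medians it was 0.26 for laminin and hemidesmosome genes, 0.58 for luminal progenitor markers, -0.37 for fibroblast genes and 0.50 for adipocyte genes.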

How the results depend on the processing

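With no replicate block, that is without the pairing by line, 0 members and 0 companion genes were called in either direction, and the same 0 and 0 were found without the intensity trend (limma adjusted p = 0.227 for Itga3, 0.29 for Itgb1, 0.252 for Itgb4 and 0.262 for Itgb5), against 4 members, 25 companion genes higher and 9 lower in the design used. The cause was not tested. In the other limma settings 3 to 5 members were called, 3 over averaged probe sets (without Itgb1) and 5 with the stricter filter or the floor (with Itgav). The integrin median was 0.69, but 0.65 with a pseudocount, 0.96 over averaged probe sets and 0.79 to 0.82 with 1 line left out. The count over 2-fold, 1 in both lines, was 1 to 4 with 1 line left out, 4 of them in line 8542 alone, and 2 (Itga3 and Itgb5) with leads lacking _x_at and _s_at. Itga2 changed by 0.015 in line 8534 alone and by -0.14 in line 8542 alone. Medians turned negative over averaged probe sets for focal adhesion signalling (-0.053) and tetraspanins (-0.099). A limma fit to 1 line has no residual degrees of freedom and was not run. Signals under 5.52 units are near background.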

Other observations

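Tetraspanins, membrane proteins that gather integrins at the cell surface, went both ways. Of 16 tested 3 rose and 3 fell, and the median changed by 0.099 in the first line and 0.10 in the second. Tspan1 gave 4.17 units before and 65.0 after treatment in line 8534, and 2.85 and 40.5 in line 8542 (limma adjusted p = 0.00628), or 11.8-fold and 7.33-fold with untreated signals raised to 5.52 units, and its call was lost over averaged probe sets (limma adjusted p = 0.0809). Cd53, a leukocyte tetraspanin, gave 10.6 to 33.8 units and did not pass (3.19-fold and 2.27-fold; limma adjusted p = 0.106). Named after their values were seen, Tspan4 (2.28-fold and 1.90-fold; limma adjusted p = 0.00673) and Tspan31 (1.38-fold and 1.52-fold; limma adjusted p = 0.0326) rose too, the call of Tspan31 being lost over averaged probe sets (limma adjusted p = 0.524). Also named after their values were seen, Cd82 (1.59-fold and 2.39-fold), Tspan12 (2.06-fold and 1.88-fold) and Tspan13 (1.81-fold and 2.28-fold) fell, and the call of Cd82 was lost over averaged probe sets (limma adjusted p = 0.0997).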
